A study of Mus musculus with 20 samples.

Results

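The genes described here encode proteins of the extracellular microfibril and the elastic fibre: the latent transforming growth factor beta (TGF-beta) binding proteins *Ltbp1*, *Ltbp2*, *Ltbp3* and *Ltbp4*, the fibrillin *Fbn1*, elastin (*Eln*), the fibulins *Fbln2* and *Fbln5*, and the microfibril-associated proteins *Mfap4* and *Mfap5*. They are 10 of the 24411 gene symbols in the count table and were taken by name. *Ltbp2* was selected on its measured counts, which rose steeply in the mutants of this same experiment, so its values in mutants against controls are given as a description, with no test, and support nothing. All 10 genes were in the table and all 10 passed the filter on low counts when mutants and controls of both sexes were compared. *Mfap5* did not pass it among males alone, and neither *Ltbp2* nor *Mfap5* passed it among controls alone.

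RNA of whole kidneys was sequenced from 20 mice at P125, counted in days after birth, with 1 library per mouse and 5 mice in each of 4 groups: male controls (MC), male mutants (MM), female controls (FC) and female mutants (FM). The mutants were labelled Pkd2fl/fl; Pax8; Tet-O-Cre +. In these mice the *Pax8* promoter drives a doxycycline-dependent activator in kidney tubule cells, which switches on Cre recombinase and deletes the floxed *Pkd2* gene there, while cells outside the tubules are not targeted. *Pkd2* encodes polycystin-2, and its loss gives autosomal dominant polycystic kidney disease (ADPKD). Controls carried only the label "Control". According to the study's methods they too had the floxed gene but lacked either the activator or Cre. Every mouse, controls included, was on the C57BL/6 background and received Doxycycline Hyclate at 50 mg/kg, which the methods place at P27 to P29. The litter labels hold the sex and 1 of 3 numbers. Mice of both sexes with the same number were read as 1 litter group, called A, B and C here. Whether such males and females were littermates is not given, and the litter term between sexes rests on this reading. Each litter group was present in all 4 groups of mice. Mice are named by group and number (MC1 to FM5). The numbers follow the order of the records and pair no mice.

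The libraries held 11307741 to 19324073 counts. *Pkd2* was 291 ± 31.1 CPM (counts scaled to the TMM-adjusted size of each library, mean ± SD, n = 5) in male controls and 119 ± 9.87 in male mutants, and 257 ± 49.1 in female controls against 145 ± 33.6 in female mutants, with no overlap in either sex. The library of FM4 stood apart: it held the fewest counts, 14850 genes had a count where the others had 16776 to 17724, and 76 genes had exactly 1 count where the others had 708 to 859. FM4 was also the mutant with the lowest kidney weight as a percentage of body weight (KBW), 0.836%. Results that move without FM4 are given both ways. In RNA of whole kidneys, fewer cells of a type and less RNA per cell cannot be told apart. P-values measure the spread between mice.

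Fibrillins polymerise into microfibrils, which decorate cell surfaces and basement membranes and serve as the scaffold on which elastin is laid down to form elastic fibres. The latent TGF-beta binding proteins attach to microfibrils; most of them carry TGF-beta in its inactive complex and so place it in the matrix, whereas the *Ltbp2* product does not bind the latent cytokine. In the kidney these proteins are made mainly by stromal, vascular and glomerular cells, and injured tubules can also secrete matrix proteins.

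The sequence just upstream of *Ltbp2* is shown because this gene had the lowest level of all members in controls and the widest separation between genotypes. It was taken from the RefSeq promoter table (GRCm38.p6, the build of the files) on the minus strand and covers 209 bases, chr12:84876533-84876741, read 5′ to 3′ toward the gene. The capitals mark a GC box, the letters GGGCGG on either strand.

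Ltbp2 upstream: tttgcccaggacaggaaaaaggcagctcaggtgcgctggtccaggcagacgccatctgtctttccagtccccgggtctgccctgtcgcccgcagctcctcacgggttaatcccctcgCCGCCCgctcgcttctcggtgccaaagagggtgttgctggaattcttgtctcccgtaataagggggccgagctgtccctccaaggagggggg

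The gene itself lay at chromosome 12, 84783212 to 84876532, on the minus strand, with 8184 bases of exon in 35 blocks (GENCODE annotation of the same build). The printed stretch is 63.2% G and C, against a median of 52.4% over all 32851 upstream windows of 250 bases in the table. The full window of 250 bases held 2 GC boxes, a motif found in 32.7% of all windows. Other motifs were searched on both strands and were not in this window. The AP-1 letters TGANTCA were in 6.75% of all windows and the TEAD letters CATTCC in 12.6%. The SMAD letters CAGACA were in 17.1% of all windows and the TATA box, TATAAA, in 12.4%. The exons of the antisense gene *D030025P21Rik* overlap 764 bases (9.34%) of the *Ltbp2* exons. Other opposite-strand overlaps covered 20.1% of the *Fbn1* exons (*Gm9913*), 4.63% of the *Mfap4* exons (*Mapk7*) and 3.30% of the *Eln* exons (*Gm30003*). Whether counting used the strand is not given in the sources used here, so reads of these overlaps cannot be assigned to one gene of the pair.

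To place the genes on a common scale, levels were taken as CPM per kilobase of exon. Fibulin-5, which tethers elastin to microfibrils and cells, was the most abundant member in all 4 groups. Its level was 18.7 ± 2.14 CPM per kilobase in male controls and 26.9 ± 3.14 in female controls. In controls of both sexes it was followed by *Ltbp4*, *Ltbp3* and *Ltbp1*, and no neighbours in that order overlapped between mice. *Fbn1* and *Eln* came next and overlapped each other in both sexes. *Ltbp2* stood last, at 0.0296 ± 0.00917 CPM per kilobase in male controls and 0.0351 ± 0.0165 in female controls.

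In mutants the top of the order was kept but its middle closed up. *Fbln5*, *Ltbp4* and *Ltbp3* kept their places in both sexes, while *Fbn1* moved up to rank 4, at 3.01 ± 1.39 CPM per kilobase in males and 3.78 ± 2.46 in females. From *Ltbp3* down to the last gene, every neighbouring pair overlapped between mice in both sexes. *Ltbp2* stood at rank 9, above *Mfap5* alone, at 0.90 ± 0.681 CPM per kilobase in males and 1.31 ± 0.994 in females. The plot of levels per kilobase shows the compression of the lower ranks.

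**Figure D1:**
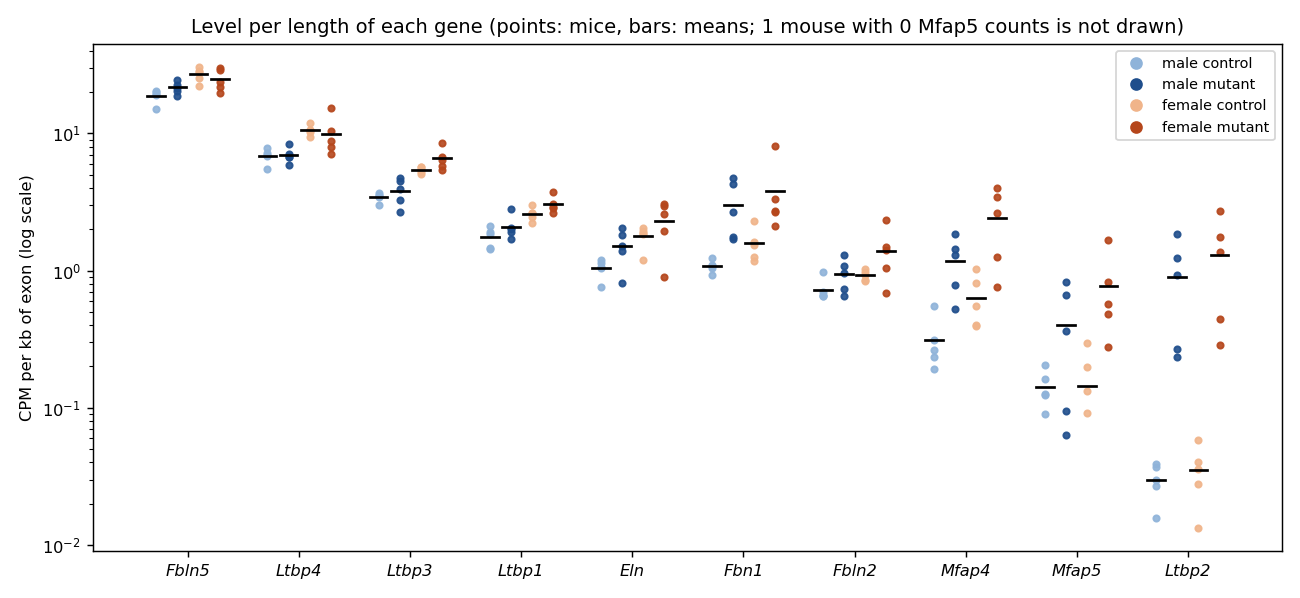
CPM per kilobase of exon (log axis) for each member in the 4 groups of 5 mice. *Fbln5* is highest in each group, and *Ltbp2* moves from 0.0296 in male controls to 0.90 in male mutants, and from 0.0351 to 1.31 in females.

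To ask which members changed with loss of *Pkd2*, mutants and controls of both sexes were compared in a single fit with sex and litter as terms (edgeR quasi-likelihood test, p-values adjusted by Benjamini-Hochberg over all genes tested, called under 0.01). Of the 9 members other than *Ltbp2*, 3 rose in mutants: the fibrillin *Fbn1* and the microfibril-associated *Mfap4* and *Mfap5*. None fell, and 6 did not pass. *Mfap5* did not pass the low-count filter among controls alone, so its place in this test leaned on the mutants, where it was high. Its call is counted here as a description only. Among all 14191 genes tested, 15.9% were called, 1421 up and 831 down. The median log2 fold change of the 9 members was 0.43, and that of all genes tested was -0.01. Without FM4, 4 of the 9 members were called, with *Eln* added, beside 21% of 14274 genes.

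Mutants and controls overlapped for each of these 9 genes when all 20 mice were pooled, whereas 0.979% of genes had every mutant above every control. Within males, *Fbn1* alone of the 8 members tested had every mutant above every control, beside 8.75% of genes. Within females none of the 9 did, beside 3.73% of genes. The plot of levels by mouse shows the values behind these comparisons.

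**Figure D2:**
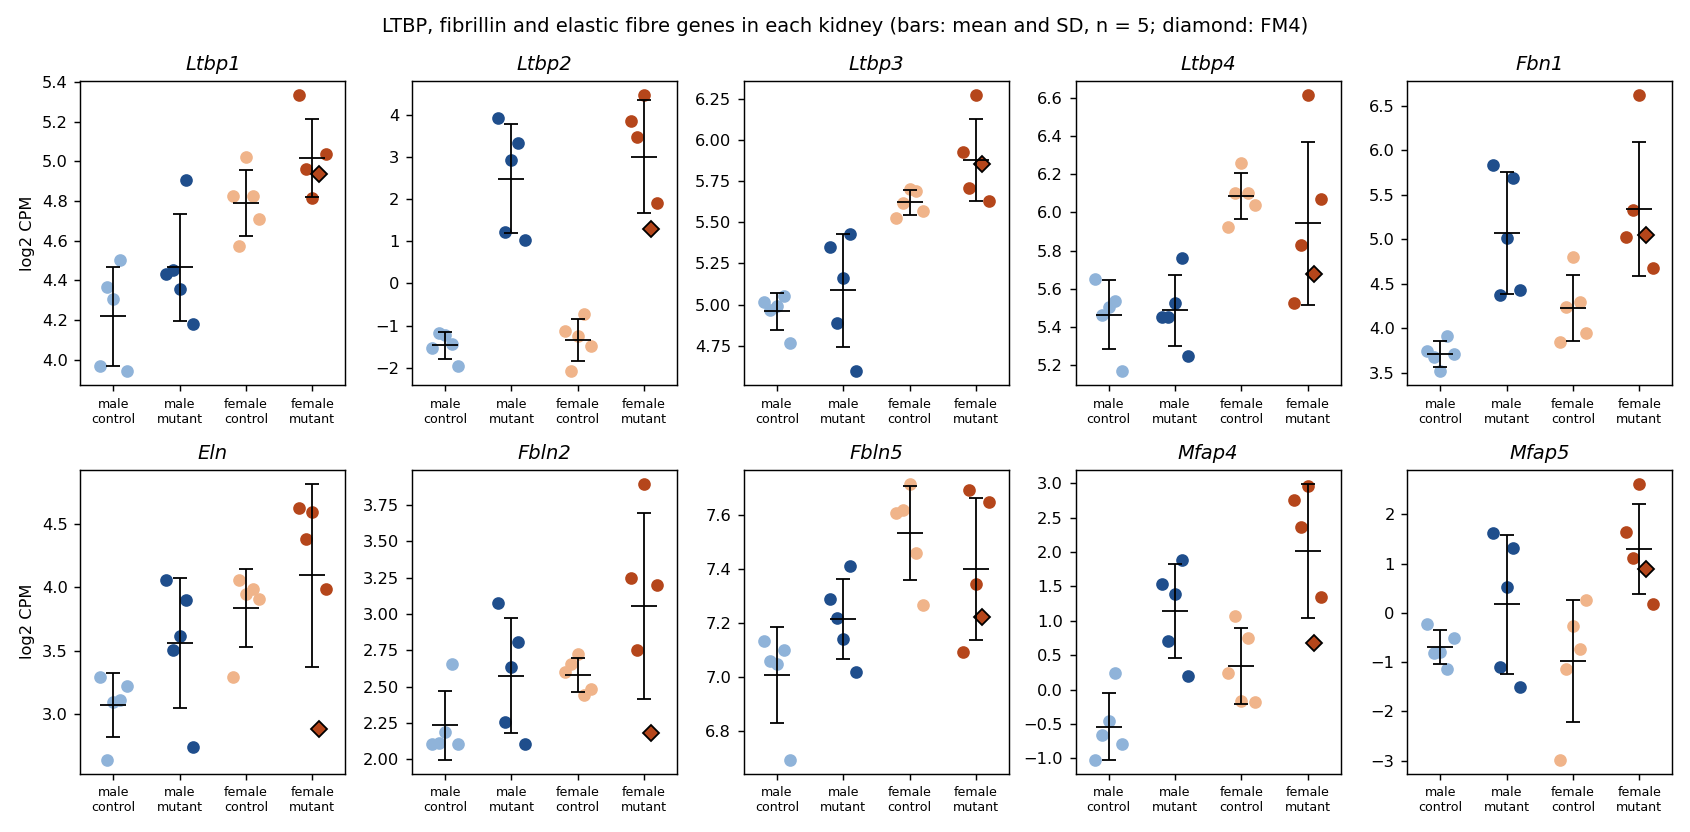
Level of each of the 10 members in each mouse (log2 CPM with a prior count of 2), with group mean and SD, n = 5 mice per group, and FM4 drawn as a diamond. *Ltbp2* separates mutants from controls in both sexes, the *Fbn1* values of male mutants lie above those of male controls, and *Fbln5* and *Ltbp4* overlap between genotypes.

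*Ltbp2*, the microfibril protein known from the fibres that suspend the eye lens, was nearly silent in control kidneys. Its counts in male controls MC1 to MC5 were 3, 5, 4, 3 and 2, and in female controls FC1 to FC5 they were 5, 2, 5, 8 and 3. In male mutants MM1 to MM5 they were 268, 32, 115, 152 and 34, and in female mutants FM1 to FM5 they were 283, 185, 438, 27 and 62. Every mutant lay above every control, with MM1, MM4, FM1, FM2 and FM3 high and MM2, MM5, FM4 and FM5 low among mutants.

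On the CPM scale *Ltbp2* stood at 0.22, 0.318, 0.301, 0.244 and 0.129 in male controls and at 15.2, 2.19, 7.54, 10.0 and 1.92 in male mutants. In female controls it stood at 0.330, 0.109, 0.295, 0.477 and 0.228, and in female mutants at 14.3, 11.1, 22.2, 2.33 and 3.64. The mutants thus spanned 1.92 to 22.2 CPM, and the controls 0.109 to 0.477. The ratio of summed counts, scaled for depth, was 31.0 in males (95% interval 19.2 to 53.6) and 41.0 in females (27.2 to 65.0). These intervals cover counting error only.

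The fitted log2 difference of *Ltbp2* was 5.04 over both sexes, 4.85 in males and 5.22 in females. The direction was the same in each litter group. The mean log2 CPM of mutants exceeded that of controls in all 6 combinations of sex and litter, by 3.0 to 4.98, although some of these hold 1 mouse per genotype. In males the difference dropped to 3.77 without MM1, and in females it ranged from 4.65 without FM3 to 5.55 without FM4.

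The other latent TGF-beta binding proteins moved little. *Ltbp1*, which anchors latent TGF-beta in the matrix, read 15.5, 20.5, 19.7, 22.6 and 15.2 CPM in male controls and 21.5, 21.7, 20.4, 29.9 and 18.0 in male mutants. Females read 28.2, 23.7, 32.3, 28.2 and 26.1 in controls and 40.2, 31.1, 28.0, 30.5 and 32.7 in mutants. The genotypes overlapped in both sexes, and only MM4, FM1 and FM5 exceeded all controls of their sex. The log2 fold change was 0.22 ± 0.0821 (SE) with an adjusted p of 0.058 in edgeR, and the mutant mean was above the control mean in 6 of 6 combinations of sex and litter.

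*Ltbp3*, which carries latent TGF-beta in bone and vessel wall, read 32.2, 31.1, 31.6, 33.0 and 27.2 CPM in male controls and 40.7, 29.5, 35.7, 43.0 and 24.0 in male mutants. In female mice the values were 46.0, 48.9, 51.8, 51.5 and 47.3 in controls and 60.8, 52.2, 77.2, 57.6 and 49.3 in mutants. Male mutants spread to both sides of their controls, while 4 of 5 female mutants lay above all female controls. The log2 fold change was 0.20 ± 0.0821 and missed the threshold (adjusted p = 0.0792, edgeR).

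*Ltbp4*, a partner of fibulin-5 in laying down elastic fibres, read 35.8 to 50.1 CPM in male controls and 37.8 to 54.2 in male mutants. Female levels were 60.5 to 76.4 CPM in controls and 45.9, 56.7, 98.1, 51.1 and 67.0 in mutants, with FM3 above and FM1, FM2 and FM4 below all controls. Its log2 fold change was -0.05 (95% interval -0.25 to 0.16, adjusted p = 0.759, edgeR), and litter groups split evenly, 3 up and 3 down.

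*Fbn1*, the main fibrillin of adult microfibrils and the gene altered in Marfan syndrome, read 13.3, 12.6, 11.3, 14.9 and 13 CPM in male controls and 56.9, 20.6, 32.2, 51.6 and 21.4 in male mutants. The females read 14.3, 18.7, 27.8, 19.5 and 15.3 CPM in controls and 32.4, 40.0, 98.5, 33.0 and 25.6 in mutants. In males the genotypes did not overlap, and in females they met only where FM5 lay below FC3. FM3, MM1 and MM4 were the highest of all mice. *Fbn1* rose by a log2 fold change of 1.31 ± 0.21 (SE, 2.49-fold, adjusted p = 1.8e-04, edgeR), and the mutant mean was higher by 0.71 to 1.45 in 6 of 6 combinations of sex and litter.

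*Mfap4* encodes a glycoprotein that binds elastin and fibrillin and is abundant around vessels. It read 0.366, 0.508, 0.601, 1.06 and 0.450 CPM in male controls and 2.77, 1.5, 2.49, 3.57 and 1.02 in male mutants. Among females it stood at 1.06, 1.96, 0.767, 1.55 and 0.760 CPM in controls and 6.61, 5.04, 7.65, 1.47 and 2.41 in mutants. Each sex had a single mutant within the range of its controls, MM5 in males and FM4 in females. *Mfap4* rose by a log2 fold change of 1.85 ± 0.278 (3.60-fold, adjusted p = 1.1e-04, edgeR), with the mutant mean higher in 6 of 6 combinations of sex and litter.

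*Mfap5*, which encodes a small microfibril glycoprotein that binds fibrillin, had the fewest counts in controls after *Ltbp2*. It read 0.732, 0.445, 0.451, 0.325 and 0.579 CPM in male controls and 2.94, 0.342, 1.31, 2.38 and 0.226 in male mutants. Females read 0, 0.327, 0.708, 0.477 and 1.06 CPM in controls and 2.98, 2.04, 6.03, 1.73 and 0.999 in mutants. The male mutants MM2 and MM5 sat at or below control level, and FM5 lay just below FC5.

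The log2 fold change of *Mfap5* was 1.96 ± 0.518 (3.89-fold, adjusted p = 0.0087, edgeR), and the mutant mean was higher in 4 of 6 combinations of sex and litter. This call was fragile: it held when MM2, MM5, FM4, FM5, MC5 or FC5 was left out and was lost when any of the other 14 mice was left out, at adjusted p of 0.0111 to 0.0392. Counts of *Mfap5* ran from 0 to 14 in controls and from 4 to 119 in mutants. Its passing of the low-count filter leaned on the mutants, so the call is a description and supports nothing.

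*Eln*, the elastin precursor, read 9.66, 6.10, 8.42, 8.52 and 9.20 CPM in male controls and 16.5, 11.2, 12.1, 14.8 and 6.55 in male mutants. In female mice the values were 9.70, 16.5, 15.3, 15.7 and 14.9 CPM in controls and 24.5, 20.7, 24.0, 7.25 and 15.8 in mutants. Male mutants other than MM5 lay above all male controls, whereas FM4 was the lowest of all females. The log2 fold change was 0.43 ± 0.196 with all mice (adjusted p = 0.116, edgeR). It became 0.55 without FM4 and was then called (adjusted p = 0.0075).

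*Fbln2*, a fibulin that binds fibrillin and elastin, read 4.17 to 6.17 CPM in male controls and 4.18 to 8.31 in male mutants. Female levels were 5.30 to 6.49 CPM in controls and 9.39, 6.60, 14.8, 4.40 and 9.05 in mutants. FM4 lay below all female controls, and the other female mutants lay above them. The log2 fold change was 0.48 ± 0.179 (adjusted p = 0.057, edgeR), and 0.56 without FM4, still short of the threshold (adjusted p = 0.0103).

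*Fbln5*, the most abundant member, read 140, 133, 132, 137 and 103 CPM in male controls and 156, 149, 141, 170 and 130 in male mutants. The females read 195, 196, 210, 176 and 154 CPM in controls and 136, 207, 162, 149 and 200.4 in mutants. Male mutants other than MM5 lay above all male controls, and 2 of the 5 female mutants lay below all female controls. Over both sexes the log2 fold change was 0.04 (95% interval -0.14 to 0.22, adjusted p = 0.781, edgeR).

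In males 2 of the 8 members tested were called, beside 8.46% of 14010 genes. *Fbn1* rose by a log2 fold change of 1.41 ± 0.264 (adjusted p = 0.0045, edgeR) and *Mfap4* by 1.76 ± 0.306 (adjusted p = 0.0033). Both calls were lost when MC1, MC2, MC3 or MC4 was left out, at adjusted p of 0.0137 to 0.0278 for *Fbn1* and 0.0106 to 0.0177 for *Mfap4*, and the *Fbn1* difference dropped to 0.97 without MM1, which left it called. *Eln* (0.49, adjusted p = 0.139) and *Fbln5* (0.20, adjusted p = 0.0549) did not pass.

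In females none of the 9 members was called, beside 0.637% of 14439 genes. In the same test 4 of the 9 had an unadjusted p under 0.05, beside 2979 of the 14439 genes. DESeq2 called 3 of these 4 members, beside 928 of the 14439 genes. *Fbn1* (log2 fold change 1.25 ± 0.297, adjusted p = 0.0356), *Mfap4* (1.94 ± 0.448, 0.0325) and *Mfap5* (2.55 ± 0.727, 0.0693) were the nearest in edgeR. The values of *Mfap5* are a description here too, since it did not pass the low-count filter among controls alone. Without FM4, *Fbn1* (1.39, adjusted p = 0.0097) and *Mfap4* (2.21, adjusted p = 0.0020) were called, beside 5.93% of 14595 genes.

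To ask whether the sexes responded differently, the difference of the male and female fold changes was tested. None of the 10 members was called, and none had an unadjusted p under 0.05. Over all 14820 genes 0% was called, 618 had an unadjusted p under 0.05, and DESeq2 called 18, with no member among them. Coded as male minus female, the difference was -0.34 for *Ltbp2* (95% interval -2.70 to 2.01), 0.19 for *Fbn1* (-0.71 to 1.09) and -0.15 for *Mfap4* (-1.43 to 1.14). These intervals are wide, and a p above the threshold does not show that males and females responded alike. The member nearest to a difference was *Fbln5*, with a log2 difference of 0.34 (95% interval -0.0024 to 0.68, unadjusted p = 0.0515, adjusted p = 1, edgeR).

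**Figure D3:**
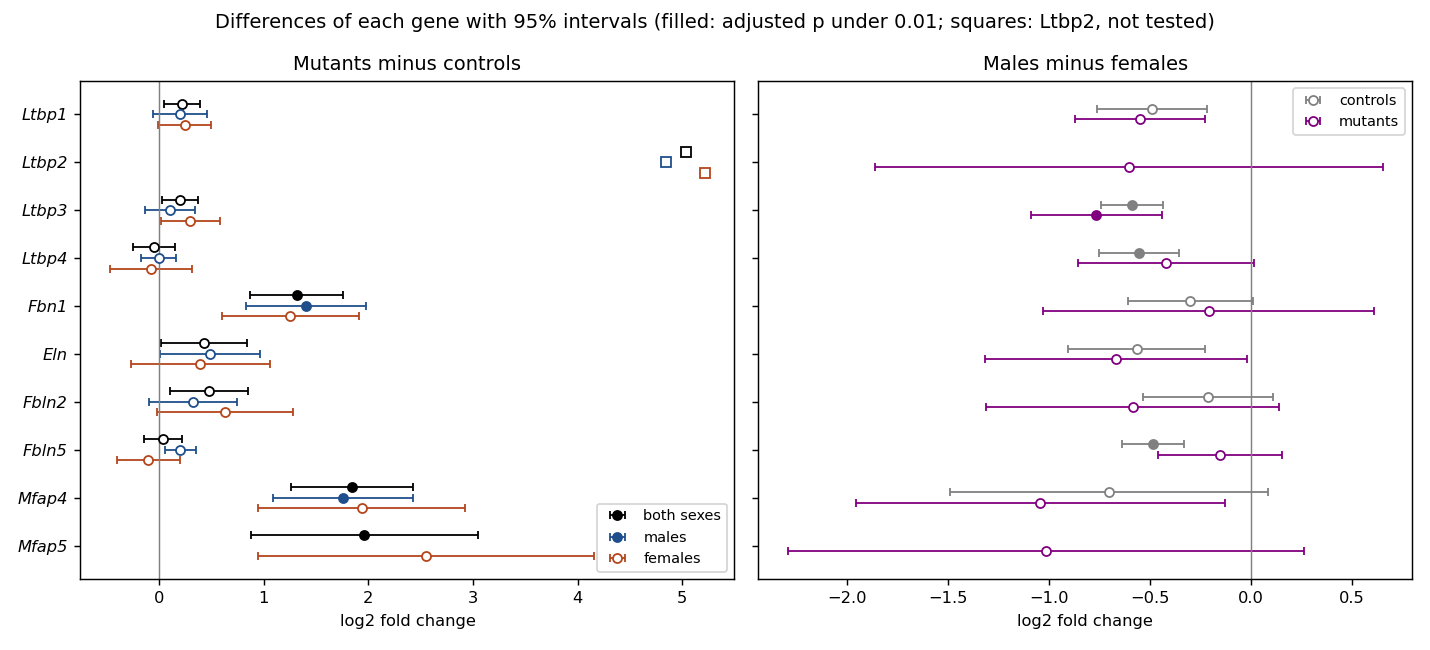
Log2 differences of the 10 members with 95% intervals: mutant minus control in both sexes, males and females, and male minus female in controls and mutants, with filled marks for adjusted p under 0.01 and squares with no interval for *Ltbp2*, which was not tested between genotypes. *Fbn1* and *Mfap4* lie right of 0 in all 3 genotype comparisons, and each member tested lies left of 0 in both sex comparisons.

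To ask whether sex mattered within a genotype, males and females were compared among controls and among mutants. Among controls, the fitted difference of all 8 members tested was on the side of lower levels in males. It was called for 3 of them, *Ltbp3*, *Ltbp4* and *Fbln5*, beside 17.8% of 14123 genes. The log2 difference, male minus female, was -0.59 for *Ltbp3* (adjusted p = 6.8e-05, edgeR), -0.55 for *Ltbp4* (6.9e-04) and -0.49 for *Fbln5* (2.9e-04). For each of these 3 genes every male control lay below every female control. The uncalled *Ltbp1* (highest male 22.6, lowest female 23.7 CPM) and *Eln* (9.66 and 9.70 CPM) were separated in the same way. How many of all genes were so separated was not counted. The male mean of the 3 called genes was lower in each litter group: by 0.54 to 0.80 for *Ltbp3*, 0.38 to 0.88 for *Ltbp4* and 0.50 to 0.57 for *Fbln5* on the log2 scale. *Ltbp4* lost its call without MC4 (adjusted p = 0.0108) and in a fit of all 20 mice (0.0196).

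Next to the threshold in controls were *Ltbp1* (-0.49, adjusted p = 0.0109) and *Eln* (-0.57, adjusted p = 0.0158). *Ltbp1* passed when FC2 was left out (adjusted p = 0.0046) and *Eln* when MC1 was left out (0.0060). *Fbn1* (-0.30, adjusted p = 0.133), *Fbln2* (-0.21, 0.307) and *Mfap4* (-0.71, 0.166) did not pass. Over all genes tested in controls, the median log2 difference was -0.01, and that of the 8 members was -0.52.

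Among mutants the fitted difference was again on the side of lower levels in males for all 10 members, although that of *Fbn1* turned to 0.11 without FM3. It was called for *Ltbp3* alone, beside 5.42% of 14416 genes. *Ltbp3* was lower by a log2 difference of -0.77 (adjusted p = 0.0072, edgeR). For this gene every male mutant lay below every female mutant, a separation that was not counted over all genes. The call of *Ltbp3* was lost without MM2, MM3, MM4, MM5, FM1 or FM5 (adjusted p 0.0133 to 0.0451). *Ltbp1* (-0.55, adjusted p = 0.0306) was not called here, but was called when MM4 was left out (adjusted p = 0.0041), by DESeq2 (0.0090) and in a fit of all 20 mice (0.0045). *Ltbp2* did not differ beyond the spread between mice (-0.60, 95% interval -1.86 to 0.65, adjusted p = 0.501).

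Without FM4, 3 of the 10 members were lower in male mutants, beside 9.12% of 14576 genes. They were *Ltbp3* (-0.80, adjusted p = 0.0058), *Eln* (-0.86, adjusted p = 0.0045) and *Mfap4* (-1.27, adjusted p = 0.0084). *Eln* encodes the main elastic component of vessel walls, and its level in female mutants other than FM4 ran from 15.8 to 24.5 CPM, against 6.55 to 16.5 in male mutants.

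KBW, the kidney weight in percent of body weight, measures how far the cystic kidneys had enlarged. Among male mutants it was 2.15, 1.22, 1.79, 1.54 and 1.71%, and among female mutants 1.38, 1.24, 1.46, 0.836 and 1.00%. Control means were 0.692% in males and 0.615% in females. The slope of each gene on KBW was fitted over the 10 mutants with sex as a term.

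None of the 10 members was called, beside 0% of 14416 genes, of which 3212 had an unadjusted p under 0.05. DESeq2 called 577 genes, *Ltbp2* among them (3.47, adjusted p = 5.2e-04). *Ltbp2* had the steepest slope of the members, 3.42 on the log2 scale per percentage point of KBW (95% interval 1.69 to 5.16, adjusted p = 0.0465, edgeR), and over the alternatives its adjusted p ran up to 0.638. The order of *Ltbp2* CPM in the 5 female mutants was the order of their KBW. In males MM1 was highest in both, while MM5 had the lowest *Ltbp2* level at a KBW of 1.71%. Without FM4 the slope was 3.03 (adjusted p = 0.157). *Ltbp2* was picked for its high counts in these same mutants, so its slope is given as a description and supports nothing.

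Slopes were positive for 8 of the 10 members, and 6 had an unadjusted p under 0.05 in edgeR. Both counts include *Ltbp2*. The other slopes among the 6 were 2.63 for *Mfap5* (adjusted p = 0.138), 1.79 for *Mfap4* (0.18), 1.56 for *Fbn1* (0.137), 1.19 for *Fbln2* (0.144) and 1.10 for *Eln* (0.203). *Ltbp1* and *Fbln5* had slopes of -0.10 and -0.09. The median slope was 1.14 over the members, *Ltbp2* included, and -0.06 over all genes tested. These counts and this median are a description only.

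**Figure D4:**
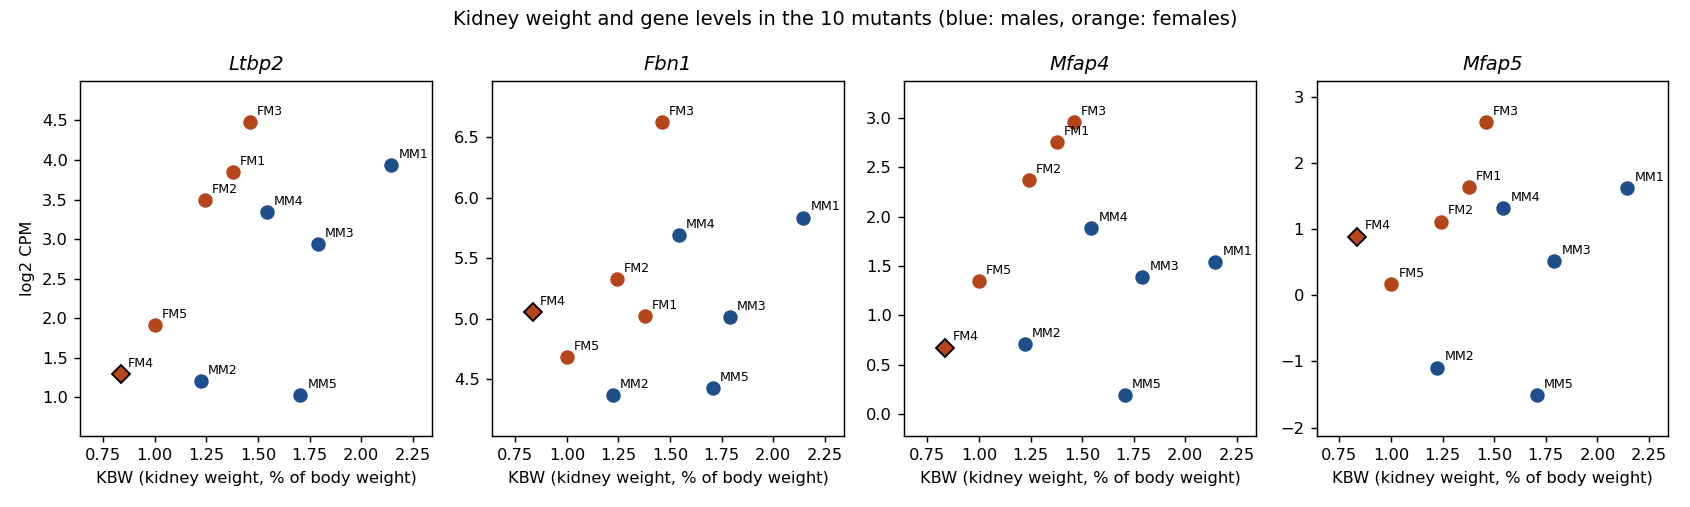
Levels of *Ltbp2*, *Fbn1*, *Mfap4* and *Mfap5* (log2 CPM) against KBW (%) in the 10 mutants, males and females marked apart and FM4 drawn as a diamond. FM4, at 0.836% KBW, is the lowest female for *Ltbp2* and *Mfap4*, and MM1, at 2.15%, is the highest male for *Ltbp2*, *Fbn1* and *Mfap5*.

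Across the 20 mice, the genes with levels most like those of *Ltbp2* (Pearson r of log2 CPM, given as a description, since the mice share groups, libraries and depth) were *Timp1*, an inhibitor of matrix metalloproteinases (r = 0.979), *Dpysl3* (0.97), *Aoc1*, a diamine oxidase (0.973), *Serpina10* (0.972) and *D17H6S56E-5* (0.972). When each mouse was taken as its deviation from its own group mean, the nearest were *Fblim1*, a filamin-binding protein of cell adhesions (0.965), the tropomyosins *Tpm4* (0.959) and *Tpm1* (0.950), *Casp12* (0.952) and the sialyltransferase *St6gal1* (0.951). Without FM4, over 19 mice, *Timp1* (0.979) and *Fblim1* (0.957) still led. The next were *Il18r1*, *Dpysl3*, *D17H6S56E-5* and *Cxcl1* for levels, and *Tpm4*, the collagen chaperone *Serpinh1*, *Ncam1* and *Arl4c* for deviations.

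Among the members, the levels of *Fbn1* (r = 0.881), *Mfap4* (0.869) and *Mfap5* (0.764) ran closest to those of *Ltbp2* over the 20 mice, and those of *Fbln5* (0.140) and *Ltbp4* (0.0732) least. Within groups the deviations of *Ltbp3* (0.767), *Mfap4* (0.762), *Fbln2* (0.731), *Fbn1* (0.730) and *Eln* (0.709) from their means were nearest to those of *Ltbp2*. Without FM4 the order was *Ltbp3* (0.860), *Fbn1* (0.762), *Mfap5* (0.696), *Mfap4* (0.678), *Fbln2* (0.626) and *Eln* (0.591). These values, too, come from the same 20 libraries.

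The remaining genes of the pathway were read from lists, in the comparison of all mutants with all controls. The share of all genes called in that comparison, up or down, was 15.9%, and 21% without FM4, and each list is to be read beside it. Of 13 other microfibril and elastic fibre genes tested, 6 rose and none fell, with a median log2 fold change of 0.62. They included the small proteoglycans *Dcn* (0.82, adjusted p = 6.4e-04, edgeR) and *Bgn* (0.76, 3.2e-04), the fibulin *Efemp2* (0.80, 0.0035) and the microfibril glycoprotein *Mfap2* (0.72, 0.0028). *Emilin1*, a glycoprotein at the interface of elastin and microfibril, just missed (0.52, adjusted p = 0.0101), and *Mfap3* read 0.09 (0.303). Without FM4, 10 of 14 tested rose. The 14 then took in *Fbn2*, which passed the filter through its high mutants, so this count is a description only.

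The second fibrillin, *Fbn2*, is used mainly in development and was looked at after its values were seen. It read 0.215 ± 0.272 CPM in male controls, 2.24 ± 1.92 in male mutants, 0.118 ± 0.11 in female controls and 4.15 ± 3.0 in female mutants. In the comparisons of mutants with controls with all mice, it passed the filter on low counts only among females. It passed there through the mutants in which it was high, so no test is given.

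Of 18 genes for fibre assembly and crosslinking, 5 rose and none fell (median 0.28), beside 15.9% of all genes called. *Lox*, the lysyl oxidase that crosslinks elastin and collagen, rose by 2.31 on the log2 scale (adjusted p = 7.8e-06, edgeR). Its relatives *Loxl2* (1.08, 1.6e-04) and *Loxl1* (0.63, 0.0040) and the fibrillin-binding *Adamtsl4* (1.02, 0.0023) rose too. The proprotein convertase *Furin*, the most abundant gene of the list not called, read -0.20 (0.0241), and the copper transporter *Atp7a*, which supplies lysyl oxidases, read 0.24 (0.0399). Without FM4, 6 rose and 1 fell.

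Of 15 genes for elastin degradation and its control, 7 rose and none fell (median 0.68, and the same counts without FM4). The macrophage elastase *Mmp12* rose by 1.79 on the log2 scale (adjusted p = 0.0027, edgeR), the elastolytic cathepsin *Ctss* by 1.78 (1.3e-04) and the membrane-bound *Mmp14* by 1.18 (1.3e-04). *Timp1* read 5.28, but its control means were 0.279 CPM in males and 0.269 in females. Its passing of the low-count filter leaned on the mutants, where it was high. Its call, counted among the 7, is a description only. The abundant inhibitor *Timp3* read 0.08 (0.603) and *Ctsl* 0.15 (0.11). The risers of this list thus include both proteases and inhibitors of proteases.

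Of 17 genes for latent TGF-beta and its activators, 6 rose and none fell (median 0.45), and 9 rose without FM4. *Tgfb3* rose by 1.20 (adjusted p = 0.0026, edgeR), *Tgfb1* by 0.75 (0.0013), the receptor *Tgfbr2* by 0.67 (3.3e-04), and *Nrros*, which anchors latent TGF-beta on myeloid cells, by 0.87 (0.0055). The integrin subunits *Itgav* (0.19, 0.0426) and *Itgb6* (0.17, 0.194), which release TGF-beta from its complex, were not called.

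Of 12 genes known to respond to TGF-beta, 7 rose and none fell (median 1.23), and 8 rose without FM4. The fibrillar collagens *Col3a1* and *Col1a1* rose by 2.20 (adjusted p = 6.4e-06, edgeR) and 2.05 (2.5e-05), and fibronectin (*Fn1*) rose by 1.58 (1.3e-04). The signalling inhibitors *Ski* (0.12, 0.23) and *Skil* (0.24, 0.0553) were not called. The median of all 14191 genes in the same comparison was -0.01.

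**Figure D5:**
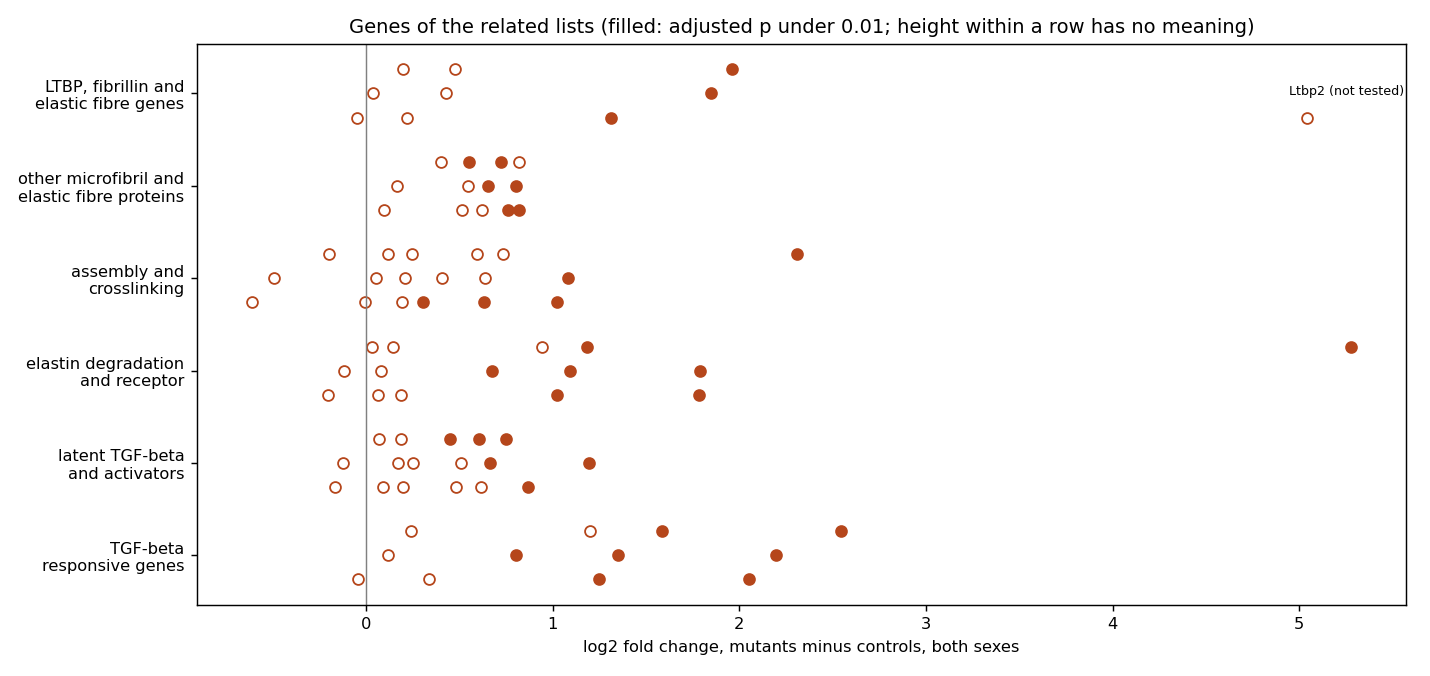
Log2 fold change of mutants against controls, both sexes, for the 10 members and for the genes of 5 related lists, with filled marks for adjusted p under 0.01. The list medians are 0.62, 0.28, 0.68, 0.45 and 1.23. *Timp1* at 5.28 (a description only) and *Ltbp2* at 5.04 (not tested) lie farthest to the right.

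Markers of other kidney cell types moved in the same comparison. Of 10 fibroblast markers 5 rose, and 6 without FM4. Their summed level ran from 227 to 291 CPM in male controls, 387 to 1103 in male mutants, 316 to 485 in female controls and 460 to 1482 in female mutants. *Pdgfra*, the defining marker, read 0.12 (adjusted p = 0.588, edgeR), and 3 of the 5 risers, *Dcn*, *Col1a1* and *Col3a1*, also stand in the lists above. All 8 macrophage markers rose (*Adgre1* by 1.54, 1.1e-04), from sums of 120 to 151 CPM in male controls and 151 to 189 in female controls to 221 to 639 and 168 to 878 in mutants. All 6 markers of injured tubules rose (*Havcr1* by 6.33, 1.8e-06). They include *Krt20*, at 0.128 CPM in male controls and 0.348 in female controls. Its passing of the low-count filter leaned on the mutants, so its call is a description only.

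Smooth muscle and myofibroblast markers split, with 2 up and 1 down of 7. *Acta2*, which is also on the list of genes that respond to TGF-beta, rose by 1.25 (adjusted p = 3.5e-04, edgeR). Their sums ran from 243 to 302 CPM in male controls, 208 to 419 in male mutants, 260 to 314 in female controls and 223 to 496 in female mutants. None of the 8 endothelial markers was called over both sexes (*Pecam1* 0.32, 0.0201), and 1 rose without FM4. In males alone 2 of the 8 were called, both higher, beside 8.46% of 14010 genes, and in females alone none was. Of 10 tubule markers 3 fell, and 4 without FM4 (*Lrp2*, not called with all mice, read -0.12, 0.446). Of 6 podocyte markers 4 fell (*Nphs1* by -0.65, 5.4e-04).

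Of 4 mesothelial markers 3 rose (*Msln* by 1.68, 0.0034, edgeR) and 1 fell, and of 8 urothelial markers 1 rose (*Upk1a*, not called, read 0.34, 0.497). The urothelial riser was *Krt20*, also counted with injured tubules, and the mesothelial faller was *Wt1*, also counted with podocytes. Adipose markers, 2 tested and none called, varied between mice of every group, from 0.339 to 447 CPM in sum. Between sexes in controls, 7 of 8 endothelial, 6 of 6 podocyte and 2 of 10 fibroblast markers were called lower in males, beside 1274 of 14123 genes. The control mean of every gene on these lists was lower in males. The median log2 difference, male minus female, was -0.47 for the endothelial, -0.63 for the podocyte and -0.38 for the fibroblast list. The median of every other marker list was negative too. It was -0.64 for injured tubule, -0.36 for smooth muscle, -0.29 for macrophage and -0.28 for tubule markers. Of 10 tubule markers 4 were called lower and 1 higher, and of 8 macrophage markers 2 were called lower. The part of any of these cell types in the results for the members was not tested.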

How the data were processed

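Kidney RNA of 20 mice was measured by RNA sequencing. The deposited file holds raw counts per gene symbol, made by the authors from trimmed and aligned reads: the submitters' processing notes name fastp 0.23.2, STAR 2.7.10b, the mm10 genome, R 4.3.0 and DESeq2, while the counting tool, gene annotation and strand setting are not given in the sources used here. No column outside the labelled samples was present (0 unused). The chi-square per gene between any of 190 library pairs was at least 5.48 times that of sampling noise, so no library was counted as a repeat of another.

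Groups came from the genotype and sex labels, and litter groups from the number in the litter label, joined over the sexes. KBW was computed from the labelled kidney and body weights, read as mg and g. Counts were scaled by TMM, filtered by filterByExpr on the groups compared, and fitted with the edgeR 4.0.16 quasi-likelihood test (R 4.3.3, limma 3.58.1), with Benjamini-Hochberg adjustment over all genes tested and calls under 0.01. The fit over both sexes held a term for each combination of sex and litter plus genotype, fits within a sex or genotype held a litter term, and the KBW fit held sex. Intervals are 95% and use the total degrees of freedom that edgeR estimates. Log2 CPM used a prior count of 2. Ratios of summed counts have exact conditional intervals. The fits were tested on simulated counts. Alternatives were DESeq2 1.42.0 (size factors and Wald test), no count filter, at least 10 counts in every mouse, other terms and leaving out each mouse. Depth (median 15813304.5 counts) limits *Ltbp2*, *Mfap4* and *Mfap5*, which had few counts in controls. Exon lengths came from GENCODE and upstream windows from RefSeq (7 of 10 members matched, 11 windows; *Eln*, *Mfap4* and *Mfap5* not matched).

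The members, lists and tests were chosen with earlier results of these data known. Genes named are all members, *Pkd2*, in each related list the 4 called genes with the largest change over both sexes and the 2 most abundant uncalled genes, the first marker of each marker list, and the 5 genes most like *Ltbp2* by each measure; others are said to have been chosen after their values were seen or are named as markers shared with a list. A gene that this rule names in a related list and an overlapping gene are not reported here.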

Additional observations from a re-analysis of the deposited data

Results flagged for a closer look

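Of 40 combinations of a member and a group of 5 mice, 3 held a mouse farther from the rest than the 95% critical value of Dixon's gap test (gap over range above 0.71). Chance flags about 1 in 20 such groups. All 3 were controls, each for another gene. *Eln* was low in FC1, at 9.70 CPM (log2 CPM 3.30, the nearest female control at 3.91). *Fbln2* was high in MC4, at 6.17 CPM (log2 CPM 2.66, the nearest male control at 2.19). *Fbln5* was low in MC5, at 103 CPM (log2 CPM 6.69, the nearest male control at 7.05). None of the 3 genes was called between genotypes with all mice, and only *Fbln5* was called between sexes in controls.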

How the results depend on the processing

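Counts of called members moved in these settings. With at least 10 counts in every mouse, 1 member was called over both sexes, beside 2002 of 12771 genes, and *Mfap4* and *Mfap5* were then not tested. In males 1 was called, beside 1016 of 13093 genes, and *Mfap4* was then not tested. In females DESeq2 called 3 members and a fit of all 20 mice called 2, against 0. In female mutants against controls the count over all genes was 92, and it was 928 by DESeq2, 856 with all 20 mice in 1 fit, 230 with no filter and 172 without the litter term. Between sexes in controls, DESeq2 and the fit without litter each called 5, beside 3025 and 3088 of 14123 genes. The fit of all 20 mice called 3, with *Ltbp1* gained and *Ltbp4* lost, beside 1700 of 14820 genes. In mutants DESeq2 and the fit of all 20 mice each called 2, beside 1959 of 14416 and 2353 of 14820 genes. The fit without litter called 0 (*Ltbp3*, adjusted p = 0.01), beside 921 of 14416 genes. For the KBW slope DESeq2 called 1, *Ltbp2*, beside 577 of 14416 genes.

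Leaving out each mouse gave 2 to 4 called members over both sexes, 0 to 2 in males, 0 to 2 in females, 0 to 0 for sex by genotype, 2 to 4 between sexes in controls, 0 to 3 in mutants and 0 to 0 for the slope. The count over all genes then ran from 1656 to 2994 over both sexes, from 187 to 1863 in males, from 3 to 866 in females, from 1223 to 2659 between sexes in controls, from 246 to 1330 between sexes in mutants, from 0 to 3 for sex by genotype and from 0 to 76 for the KBW slope, where the 76 came without MM5.

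Signs turned only for differences that were not called. Without litter, *Ltbp4* in males was 0.018 and the sex by genotype differences of *Ltbp1* and *Mfap4* were 0.021 and 0.013. With 1 mouse left out, log2 values ran from -0.00093 to 0.10 for *Fbln5* over both sexes, from -0.0080 to 0.19 for *Ltbp3* and from -0.047 to 0.031 for *Ltbp4* in males, from -0.30 to 0.015 for *Ltbp4* in females, from -0.096 to 0.057 for *Ltbp1*, from -1.46 to 0.19 for *Ltbp2*, from -0.30 to 0.59 for *Fbn1*, from -0.13 to 0.38 for *Eln*, from -0.59 to 0.077 for *Fbln2* and from -0.50 to 0.15 for *Mfap4* for sex by genotype, from -0.44 to 0.11 for *Fbn1* between sexes in mutants, from -0.23 to 0.049 for *Ltbp1*, from -0.18 to 0.42 for *Ltbp4* and from -0.23 to 0.017 for *Fbln5* for the KBW slope. Of the remaining values for single members, 800 of the leave-one-out values and 350 of the others kept direction and side of the threshold. DESeq2 size factors changed no count of called members. No paired analysis was possible because replicate numbers were assigned in accession order and pair no mice.

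Counts limit *Ltbp2*, *Mfap4* and *Mfap5*: in controls they rest on 2 to 8, 5 to 36 and 0 to 14 counts per mouse, so their fold changes depend on few reads. Litter groups hold 1 mouse per genotype in some combinations. The cause of the changes under other settings was not tested.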
